A study of Drosophila melanogaster with 4 samples.

Results

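The chromatin around 6 genes that build, maintain and police mitochondria was examined in Drosophila flight muscle: ewg, srl, TFAM, Ets97D, Pink1 and park. The members are the ATAC-seq peaks that overlap each gene's span extended by 2000 bp on each side, here called the gene's window, in a release 6 gene annotation. ATAC-seq marks open DNA by where a transposase can cut. The 4 deposited peak lists held 62 such peaks, which joined into 21 regions where intervals of any lists shared at least 1 bp, out of 44429 regions joined the same way on the 6 main chromosome arms. All 6 genes were found in the annotation, and each window held at least 1 peak in every library, as did 61.2% of all annotated genes' windows.

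The 2 mutant libraries came from flies with the allele Pgk[Delta.E2F], of which 1 line (line 12) was used. In this allele the E2F site upstream of Pgk, the gene for the glycolytic enzyme phosphoglycerate kinase, is mutated. The 2 control libraries came from w[1118] flies, and the mutants carry w[1118] too. Thoracic muscles, enriched for those of flight, were dissected from untreated pharate animals for nuclei, 96 hours after puparium formation at 25 °C, with at least 40 animals pooled per sample. The study asked whether E2F regulation of Pgk matters in development; here the question is which of the called accessible regions at the mitochondrial regulators differ between the genotypes.

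Mitochondria are built from proteins of the nuclear genome and a small genome of their own. In animals, a set of nuclear transcription factors and PGC-1 coactivators drives the genes for mitochondrial proteins, and TFAM packages mitochondrial DNA and starts its transcription. Damaged mitochondria are marked by the kinase PINK1, which activates the ubiquitin ligase Parkin. Indirect flight muscle is packed with mitochondria, and flies that lack Pink1 or park lose flight muscle with swollen mitochondria.

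The lists held 26186 and 26880 peaks in mutants 1 and 2, and 30300 and 30787 in controls 1 and 2. A background level of overlapping fragments or reads, solved from each peak's fold enrichment and p-value and taken as relative depth, was 4.62 and 5.26 in the mutants, against 7.44 and 7.61 in the controls, so the mutants were the shallower libraries throughout and mutant 1 the shallowest. Depth therefore moved with genotype, and its part in the differences below was not tested except where stated. Within 500 bp of a gene end, 6 of 8 flight muscle markers had a peak in mutant 1, 7 in mutant 2 and 7 in each control, and Mf had none there in any library. Of 14 markers of neurons, fat body, hemocytes, trachea and male germ line, 4 and 2 had one in the mutants, against 3 and 4 in the controls. None of the 3 hemocyte markers had one in any library, whereas elav and Lsp2 had one in all 4. A gene-end peak in all 4 libraries was found at 6 of the 8 and 2 of the 14, against 36.9% of all annotated genes. Length under peaks in the window was lower in both mutants for 7 of the 8 flight muscle markers (87.5%). It was so for 2 of the 14 others (14.3%), against 45.9% of all gene windows with a peak. The cause was not tested. An open gene end is not expression, and the share of other cells was not measured. In bulk nuclei, fewer open nuclei and less opening in each cannot be told apart. The window of Pgk itself held 4 peaks in mutant 1 and 7 in mutant 2, against 9 in control 1 and 6 in control 2. The position of the mutated site is not given in the labels, so these calls do not check the genotype.

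Of the 21 regions, 9 (42.9%) were called in all 4 libraries, against 30.3% of all merged regions. None was called in both mutants and neither control (0 of 21; background 1.76%), and 2 (9.52%) were called in both controls and neither mutant (background 5.93%). The 2 control-only regions lay inside ewg and inside Pink1. Leaving out 1 library, so that fewer had to agree, gave 4 control-only regions without mutant 1, 5 without mutant 2, 3 without control 1 and 5 without control 2, and 1 mutant-only region without mutant 2 or control 2. The other 10 regions were called in 1, 2 or 3 libraries without following the genotypes, and 2 of these lacked a call in mutant 1 alone (9.52%; background 9.14%). In all, 4 of the 21 (19.0%) were called in a single library, against 37% of all merged regions. By library, 12 and 14 of the 21 regions were called in mutants 1 and 2 and 18 and 16 in controls 1 and 2. The whole lists were shorter in the mutants too, with 26186 and 26880 peaks, against 30300 and 30787 in the controls. The share of all merged regions called in each library is not given here. All 3 regions that crossed an end of a member gene were called in every library, against 3 of 8 wholly inside a member and 3 of 10 in the flanks. No share by position over all merged regions is given here, so these counts are not read as a trait of the 6 genes. The annotation used here gives no strand, so gene ends are called low and high by coordinate, and which of them starts transcription is not stated.

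**Figure D1:**
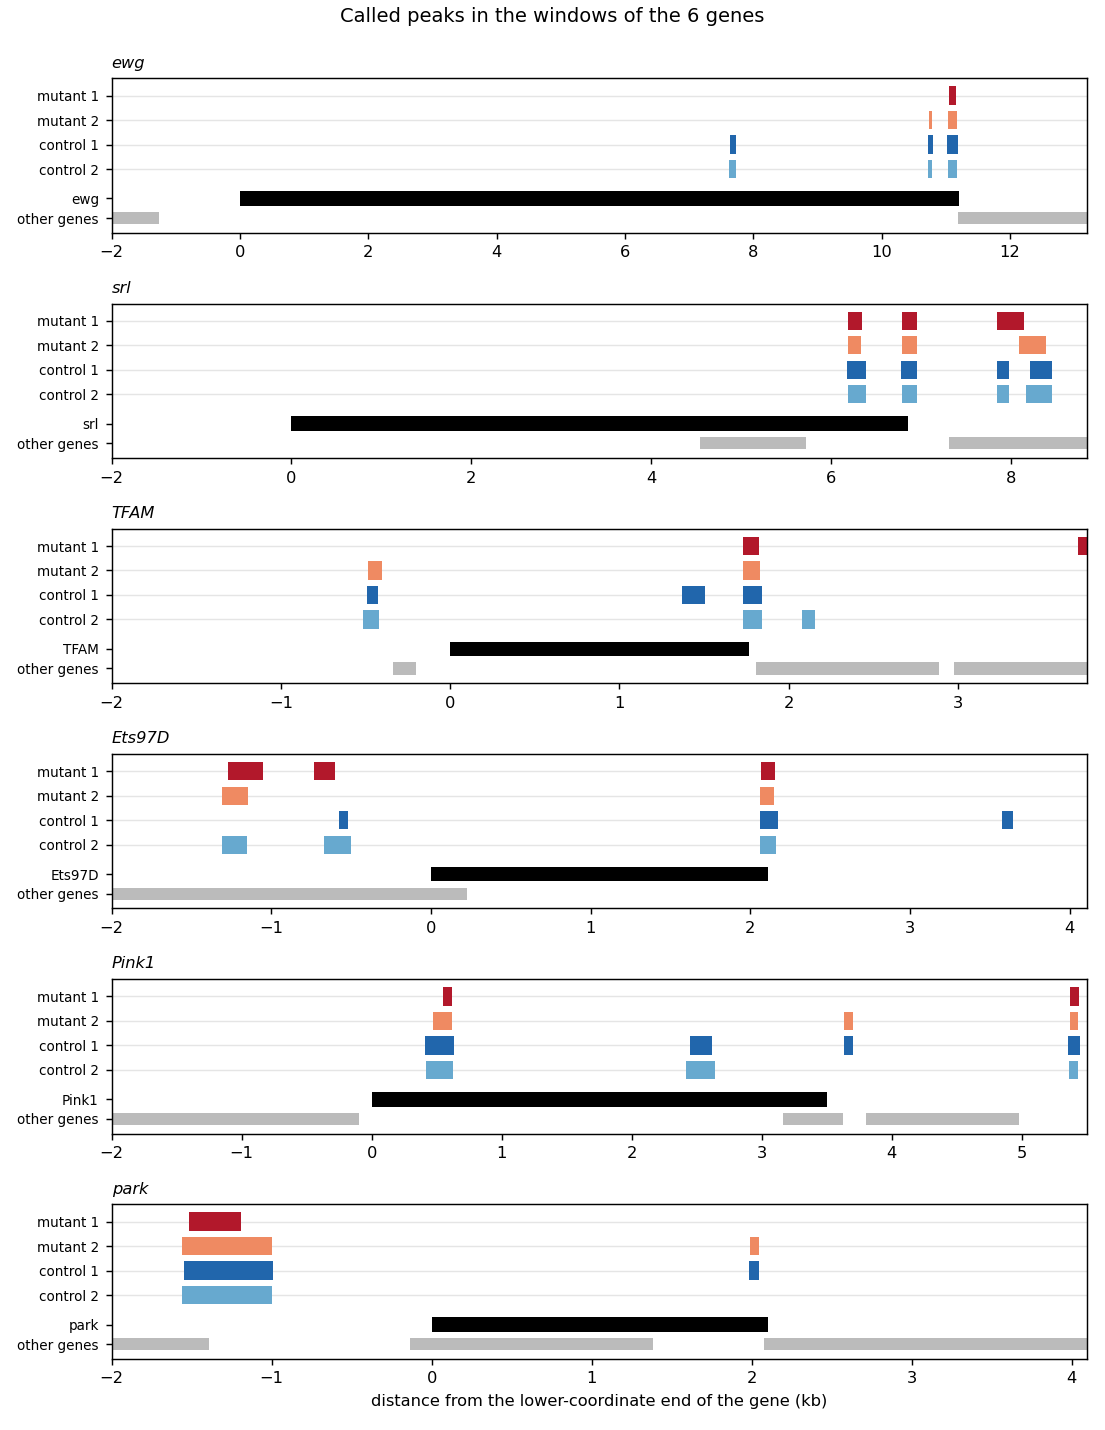
Called peaks (coloured bars) in the windows of the 6 genes by library, with the gene in black and other annotated genes in grey; the x axis is the distance in kb from the lower-coordinate end of each gene. At ewg, srl, TFAM and Ets97D a peak stands at the high end in all 4 libraries, while 1 region inside ewg and 1 in the middle of Pink1 are called only in the controls. A peak at the right border of the TFAM window runs past it and is drawn cut.

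Among the nuclear regulators, srl (3R:4422483-4429335, locus tag Dmel_CG9809) had the strongest accessible gene end. The gene encodes Spargel, the fly PGC-1 family coactivator. The region 3R:4429265-4429440 crossed its high end, with summits 23 and 40 bp beyond the end in mutants 1 and 2 and 40 and 28 bp beyond it in controls 1 and 2. Its peaks ranked in the top 2.17% and 3.21% of the mutant lists and the top 1.45% and 1.16% of the control lists by p-value. The authors' fold enrichments, each against the library's own background, were 13.6 and 13.7 in the mutants, against 19.7 and 19.0 in the controls. The summit pileup, the number of overlapping fragments or reads solved as above, was 106 and 129 in the mutants, against 260 and 255 in the controls. Pileups were not scaled for depth, and no share over all regions is given for fold enrichment or pileup. These differences are thus not read as a trait of srl, and the part of depth in them was not tested. Its width hardly varied, at 171 bp in each mutant and 176 and 173 bp in the controls.

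A second region inside srl, 3R:4428663-4428869, was called in all 4 libraries 585 to 591 bp short of the same end. It measured 154 and 147 bp in the mutants and 207 and 194 bp in the controls, and ranked in the top 13.8% and 22.0% of the mutant lists and the top 20.9% and 21.8% of the control lists. The third region, 3R:4430325-4430940, overlapped eIF3a, a translation initiation factor gene that lies 462 bp away. Each mutant had 1 peak there, of 297 bp in mutant 1 and 301 bp in mutant 2, at different places within the region. The controls had 2 peaks each, of 143 and 240 bp in control 1 and 138 and 287 bp in control 2. No peak was called within 500 bp of the low end of srl in any library, or over CG31525, a gene nested inside srl.

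The gene ewg (X:268509-279718, Dmel_CG3114) encodes Erect wing, the fly counterpart of NRF1, a transcription factor that flight muscle needs to form. Its high end carried the region X:279534-279693, with the summit 106 bp inside the end in mutant 1 and 105 bp inside it in the other 3 libraries. That summit moved by 1 bp over the 4 libraries. The median spread was 27 bp (quartiles 8 and 60 bp) over the 11350 regions with 1 peak in each library. The peak ranked in the top 29.3% and 12.9% of the mutant lists and the top 7.87% and 12.7% of the control lists. It was 117 and 152 bp wide in the mutants and 160 and 152 bp in the controls, and the mutant 1 call was the shortest. The end overlaps the neighbouring gene CG3777 by 16 bp, so the region cannot be assigned to ewg alone.

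Closer to the middle of ewg the calls thinned out. The region X:279226-279304 was called at 59 bp in mutant 2 and at 79 and 75 bp in controls 1 and 2, but not in mutant 1. The region X:276132-276238, 3515 bp from the high end, was called in neither mutant and in both controls, at 86 and 107 bp with the summit on the same base. Its summit pileups were 27 and 31 over a background of 7.44 and 7.61. Scaled to the background of mutant 1, these peaks had −log10 p of 5.59 and 6.88, above the lowest −log10 p of 3.53 in the mutant 1 list. The scaling makes no allowance for sampling noise or for a lower enrichment in mutant 1. It therefore cannot tell whether the region would have been called there. The peaks ranked in the top 75.4% and 57.2% of the control lists, that is in the weaker part of both lists.

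Ets97D (3R:26910775-26912886, Dmel_CG6338) encodes an ETS-domain factor, the fly counterpart of the GABP alpha subunit. The gene had 1 region called in every library, at its high end. The region 3R:26912833-26912945 lay across the end, with summits 2 and 17 bp inside it in the mutants and 1 bp inside it in each control. It ranked in the top 18.4% and 15.0% of the mutant lists and the top 14.5% and 15.7% of the control lists. Its width was 88 and 87 bp in the mutants and 113 and 96 bp in the controls. The mutant calls were thus the narrower ones, as in 50% of all regions with 1 peak in each library. The low end is shared with T48, which overlaps Ets97D by 223 bp, and 2 weaker regions lay beyond that end within T48. One of them, 3R:26909465-26909722, was called in both mutants and control 2, and the other, 3R:26910045-26910274, in mutant 1 and both controls. The last region, 3R:26914348-26914420, was called in control 1 only.

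TFAM (3R:20575245-20577010, Dmel_CG4217), the packaging protein of mitochondrial DNA, had its strongest region at the high end as well. The region 3R:20576975-20577085 reached from TFAM into CG5412, which lies 42 bp away, so the opening is shared by both genes. Its summits lay 0 and 18 bp beyond the end of TFAM in the mutants and 23 and 16 bp beyond it in the controls. The position was thus held within 23 bp. The peaks ranked in the top 32.3% and 28.4% of the mutant lists and the top 12.3% and 19.9% of the control lists. The summit pileups were 32 and 43 in the mutants, against 111 and 75 in the controls. Their widths were 94 and 97 bp in the mutants and 111 and 110 bp in the controls. Both mutants lay below both controls in pileup and width. For width the same held for 50% of all regions with 1 peak in each library. Pileups were not scaled for depth here, and no such share is given for them. Beside the low end, near a small nucleolar RNA gene (snoRNA:Psi18S-301), the region 3R:20574733-20574841 was called in mutant 2 and both controls. The other 3 regions of the window were called in 1 library each, 1 of them in mutant 1, 1 in control 1 and 1 in control 2, and all ranked in the weakest 10% of their lists.

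The quality-control genes differed in layout. Pink1 (X:6683798-6687302, Dmel_CG4523), the kinase gene, had no end with a peak within 500 bp in every library. The region X:6684210-6684432, called in all 4 libraries, lay inside the gene with summits 589 and 528 bp from the low end in the mutants and 537 and 552 bp from it in the controls. It was 69 and 151 bp wide in the mutants and 223 and 208 bp wide in the controls. The mutant 1 call was the shortest of the 4 and the only one that did not reach within 500 bp of the low end. The lack of a gene-end call in mutant 1 thus rests on that cutoff. The region ranked in the top 68.7% and 46.3% of the mutant lists and the top 25.2% and 30.5% of the control lists. Summit pileups were 25 and 37 in the mutants, against 76 and 57 in the controls. Width and pileup did not overlap between genotypes, and the part of depth in either was not tested. Both mutants were narrower than both controls in 50% of all regions with 1 peak in each library, and no such share is given for pileup.

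The second control-only region, X:6686218-6686434, also lay inside Pink1. It was called in neither mutant, and at 167 and 217 bp in controls 1 and 2. The control peaks ranked in the top 93.7% and 55.1% of their lists, and the summits were 109 bp apart. Scaled to the background of mutant 1, their −log10 p was 3.73 and 7.18, so the peak of control 1 stood only just above the lowest value of 3.53. The limit of this scaling given for ewg holds here too. In lists cut to equal length the peak of control 1 fell out, and 1 control-only region, the one in ewg, was left. Beyond the high end of Pink1 and beside CG44303, the region X:6687427-6687497 was called in mutant 2 and control 1 alone, with summits 150 bp past the end in mutant 2 and 153 bp past it in control 1. The region X:6689152-6689242, at the far border of the window and beside CG14442, was called in all 4 libraries, at 69 and 64 bp in the mutants and 91 and 73 bp in the controls. No region was called over Fum1 or Fum2, the fumarase genes on the other side, where they lie inside the window.

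The gene park (3L:21194754-21196853, Dmel_CG10523), which encodes the ubiquitin ligase Parkin, had a gene-end call in mutant 2 and control 1 alone. An antisense RNA gene, asRNA:CR45951, covers much of it. The only region on the gene, 3L:21196739-21196800, was called at 59 bp in mutant 2 and 62 bp in control 1, and not in mutant 1 or control 2. It ranked in the top 84.4% of the mutant 2 list and the top 59.3% of the control 1 list. The strong region of the window, 3L:21193193-21193761, had summits 1423 to 1431 bp before the low end of park and crossed the end of CG42337. It was called in all 4 libraries, at 325 and 560 bp in the mutants and 558 and 563 bp in the controls, and ranked in the top 2.15% and 2.01% of the mutant lists and the top 0.947% and 1.44% of the control lists. Mutant 1 alone had the narrow call. Counts for the park window therefore mostly describe a neighbour.

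The genes could be put in order within each list by the strongest peak on the gene or within 500 bp of its ends. In all 4 libraries srl came first and Pink1 after the other called genes except park, which came last or was not called. Between them the order varied. After srl came Ets97D, ewg and TFAM in mutant 1, then ewg, Ets97D and TFAM in mutant 2 and control 2, and ewg, TFAM and Ets97D in control 1. Ranking by fold enrichment in place of p-value left all 22 places unchanged. A gene end was within 500 bp of a peak in every library for 4 of the 6 genes, ewg, srl, TFAM and Ets97D, against 39.6% of protein-coding genes on the main arms. Pink1 had one in mutant 2 and both controls, and park in mutant 2 and control 1.

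**Figure D2:**
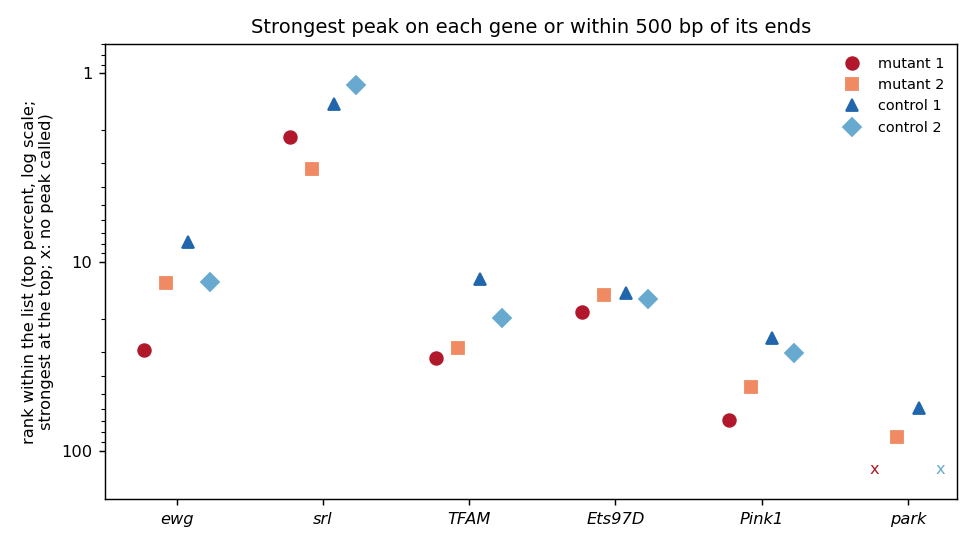
Rank within its own list (top percent by p-value, log scale, strongest at the top) of the strongest peak on each gene or within 500 bp of its ends, for mutants 1 and 2 and controls 1 and 2; an x marks a library with no such peak. srl lies between 1.16% and 3.21% in all 4 libraries, and park has a peak only in mutant 2 and control 1.

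Fewer peaks were counted for both mutants than for both controls at 3 of the 6 windows, ewg, srl and TFAM, and at none were there more. Over all 14923 gene windows with a peak in any library the shares were 15.5% and 3.48%. The count was 4 of 6 without mutant 1, mutant 2 or control 2. At ewg the mutants had 1 and 2 peaks and the controls 3 each. At srl each mutant had 3 and each control 4, and at TFAM each mutant had 2 and each control 3. For these 3 genes the difference in means gave p = 0.333 (exact permutation test, two-sided, n = 2 per genotype), the smallest value that 2 against 2 allows. Ets97D had 3 and 2 peaks in the mutants and 3 in each control (exact permutation p = 1). Pink1 had 2 and 3 in the mutants, against 4 and 3 in the controls (exact permutation p = 0.667), and park 1 and 2 in the mutants, against 2 and 1 in the controls (exact permutation p = 1).

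The length under peaks was lower in both mutants than in both controls at 4 of the 6 windows and higher at none, where 45.9% of all gene windows were lower and 3.73% higher. ewg had 164 ± 66.5 bp in the mutants and 329.5 ± 6.36 bp in the controls (SD, n = 2 each). srl had 620.5 ± 2.12 bp in the mutants and 779 ± 18.4 bp in the controls, and TFAM 166.5 ± 20.5 bp in the mutants and 296 ± 26.9 bp in the controls. Pink1 had 209 ± 100.4 bp in the mutants and 524.5 ± 37.5 bp in the controls, a difference of -315.5 bp. Each of these 4 gave p = 0.333 (exact permutation test, two-sided). Ets97D (439 and 250 bp in the mutants, 248 and 418 bp in the controls) and park (325 and 619 bp in the mutants, 620 and 563 bp in the controls) overlapped between genotypes, each with an exact permutation p of 0.667. The difference of 11.5 bp at Ets97D changed sign to -83 bp without mutant 1 and to -73.5 bp without control 1.

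The median difference over the 6 genes was -144 bp, against -91.5 bp over all gene windows with a peak, so shorter calls in the mutants were a feature of the whole lists. The direction at srl turned round when only peaks with −log10 q of at least 5 were kept or lists were cut to equal length, with a difference of 105 bp in favour of the mutants each time. The weaker of the 2 control peaks over eIF3a then dropped out, while the single mutant peaks there stayed. Without mutant 1 the difference at park was 27.5 bp in favour of the mutant.

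**Figure D3:**
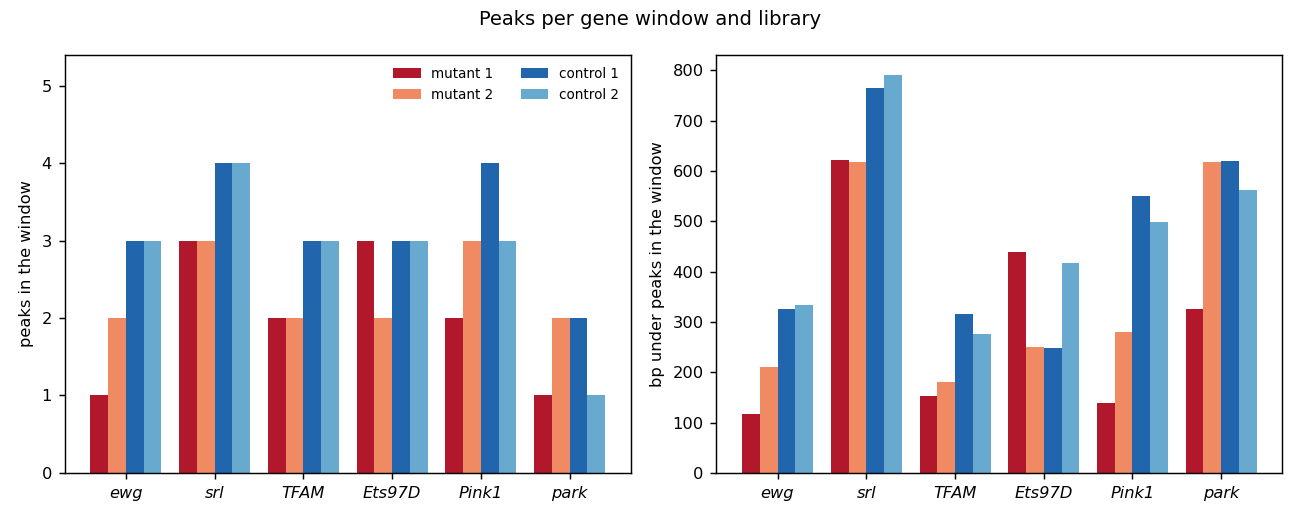
Number of peaks (left) and bp under peaks (right) in each gene window for mutants 1 and 2 and controls 1 and 2; bars are single libraries. At ewg, srl and TFAM both mutants lie below both controls in each panel, at Pink1 only in the right panel, and Ets97D and park overlap.

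Of the 9 regions called in all 4 libraries, 7 (77.8%) had fewer bp under peaks in both mutants than in both controls and 0 had more. Over the 13474 such regions of the series the shares were 50.3% and 4.33%, so shorter calls in the mutants were common everywhere. One of the 7 was the region over eIF3a beside srl, where the 2 peaks of each control were summed, and each single mutant peak there was wider than any single control peak. Among the 8 regions with 1 peak in each library, 6 (75%) were narrower in both mutants and 0 wider, against 50% and 4.4% of the 11350 such regions of the series. Over all 13474 regions called in every library, the median length under peaks was 151 and 167 bp in mutants 1 and 2 and 198 bp in each control. The exceptions to the 7 were the high end of ewg, where mutant 2 and control 2 were both 152 bp wide, and the region beside park, where mutant 2 at 560 bp lay between the controls. The high end of srl met the rule by only 2 bp. The background levels given above were also lower in both mutants than in both controls. Between the controls these levels were close, at 7.44 in control 1 and 7.61 in control 2. At the region inside srl, control 1 had 207 bp and a summit pileup of 87, and control 2 had 194 bp and 74. The part of depth in the widths was not tested.

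**Figure D4:**
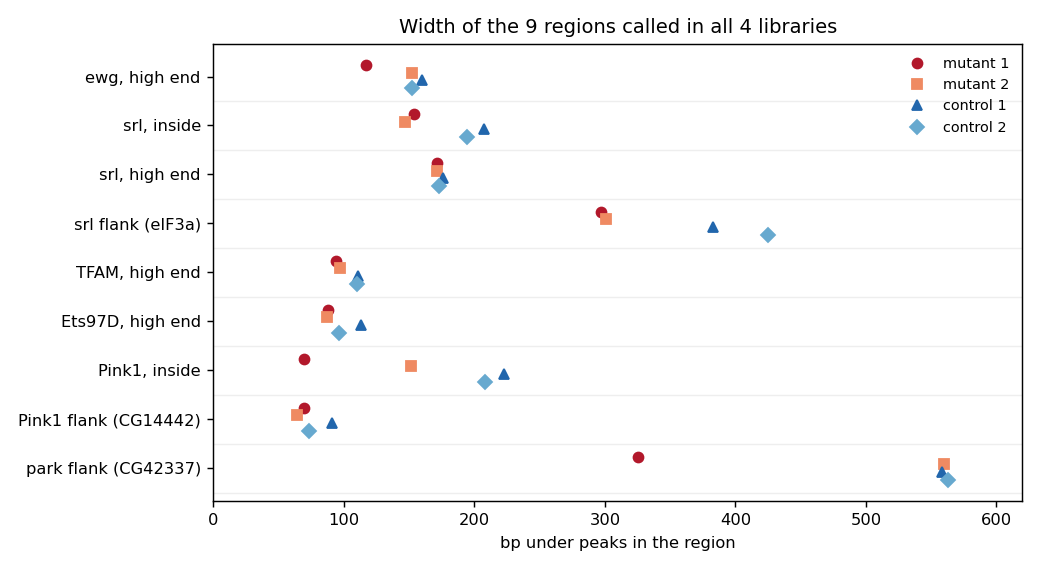
Bp under peaks in each of the 9 regions called in all 4 libraries, with 1 symbol per library (mutants 1 and 2, controls 1 and 2). The mutants lie below the controls in 7 regions; the exceptions are the high end of ewg and the region beside park.

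The other genes of the pathway were taken from lists of 43 genes, all found in the annotation. None had a gene-end peak in both mutants and neither control, and none in both controls and neither mutant, where the background over all genes was 0.549% and 2.84%. In the wider windows the counts were likewise 0 and 0 of 43 (background 0.565% and 1.82%). A peak in every library was found in 36 of 43 windows, against 61.2% of all annotated genes' windows. In all, 25 of 43 (58.1%) had a gene-end peak in all 4 libraries, against 36.9% of all annotated genes and 39.6% of protein-coding genes. By library, 27 and 37 of the 43 had one in mutants 1 and 2 and 42 and 38 in controls 1 and 2. The shares by library over all genes are not given here, so the low count in mutant 1 is not read as particular to the pathway. A call was missing in mutant 1 alone in 12 of 43 (27.9%), against 7.65% of all genes. Both shares also count genes without a call in the other libraries. Calls in all 4 libraries were more frequent in the lists too (58.1% against 36.9%), so this gap is not read as particular to the pathway. Some of these windows share peaks: fzo, for example, lies inside cnc.

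The nuclear regulators were ERR (the estrogen-related receptor), Myc, Hcf, cnc, foxo, crc, AMPKalpha and Sirt1. Of these 8 genes, 6 (75%) had gene-end peaks in all libraries, against 36.9% of all annotated and 39.6% of protein-coding genes. The genes that copy, transcribe and protect mitochondrial DNA, such as PolG1 (the polymerase) and mtSSB (the single-strand binding protein), had them in 4 of 11 (36.4%), close to the share of all genes. Those for fusion, fission and transport, such as Marf and Opa1 (fusion) and Drp1 (fission), had them in 7 of 9 (77.8%). Those for quality control, such as the mitochondrial protease Lon and the chaperone Hsp60A, had them in 8 of 15 (53.3%). Length under peaks was lower in both mutants in 27 of the 42 windows with a peak and higher in both in 1, against 45.9% and 3.73% of all gene windows with a peak. That 1 was Pgam5, named after its values were seen, with 140 and 279 bp in the mutants and 123 and 101 bp in the controls. The gene with no peak in any library, mTerf5, was also named after its values were seen. The median difference over the 42 genes was -133.5 bp, against -91.5 bp over all gene windows with a peak. Chosen by the same view of the lists, ref(2)P, the fly p62 adaptor that binds ubiquitin, had 105 and 140 bp in the mutants and 479 and 429 bp in the controls, and Mul1, a mitochondrial ubiquitin ligase, had 87 and 112 bp in the mutants and 334 and 365 bp in the controls.

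**Figure D5:**
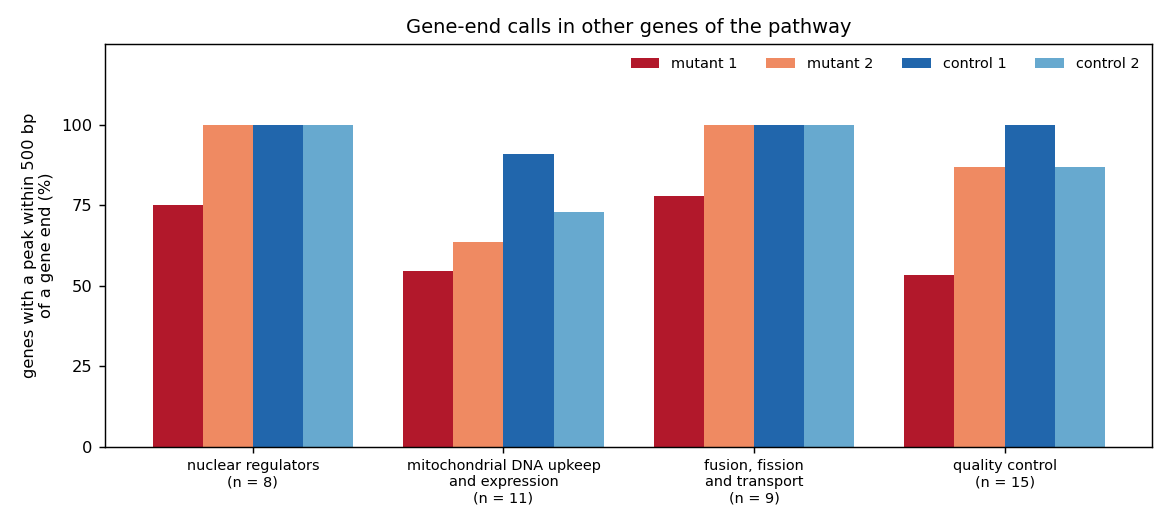
Percent of genes in each of 4 pathway lists with a peak within 500 bp of a gene end, for mutants 1 and 2 and controls 1 and 2. Mutant 1 has the lowest bar in every list, with 8 of 15 quality-control genes, against 13 in mutant 2, 15 in control 1 and 13 in control 2. Bars for all genes are not drawn.

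The mitochondrial chromosome, which TFAM coats, carried 20 peaks in mutant 1 and 24 in mutant 2, against 21 in control 1 and 18 in control 2 (exact permutation test, two-sided, p = 0.667). These peaks spanned 4467 and 4452 bp in the mutants and 5006 and 6835 bp in the controls. The mutants were thus lower in length but not in number, with an exact permutation p of 0.333 for length. Median fold enrichment of these peaks went the other way, at 4.79 and 4.68 in the mutants, against 4.36 and 3.71 in the controls. Length under peaks on the main arms was also lower in the mutants, at 3977 and 4054 kb, against 5094 and 5434 kb in the controls. The part of depth was not tested. Peaks on a genome without nucleosomes do not measure its copy number.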

How the data were processed

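Per the submitters' processing notes, the tools were bcl2fastq 2.20, MultiQC 1.5, cutadapt 2.3, Bowtie2 2.4.1, Picard and MACS2 2.2.7.1 with build BDGP6, with roles, filters and any read shift not given in the sources used here. The authors deposited 1 headerless peak list per library with a fold enrichment (ratio), −log10 p, −log10 q and summit per peak, so peaks were called per library. The lowest −log10 q of each list was just above 2. Ranks were taken within a list. Fold enrichments and summit pileups were also set side by side across lists, as description only. Nothing in the labels says that replicates were collected separately, so the spread between them may be technical. The exact permutation p-values compare the ways of assigning these samples to the genotypes and do not measure that spread.

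Peak lists were joined on arms 2L, 2R, 3L, 3R, 4 and X. Gene spans came from RefSeq (assembly Release 6 plus ISO1 MT), which lists 17684 genes on those arms. The table has no strand, so positions within 500 bp of either gene end replaced the planned promoter windows, and sequences and motifs were not analysed here. Peak height and local background were solved under a Poisson model for −log10 p up to 250 (98.7% to 99.8% of peaks, largest misfit 0.000896 in −log10 p). Depth-scaled lists kept peaks that would pass in mutant 1 after scaling. Tests were exact permutation tests over libraries. Positions count from 1. Merging, window counts and pileups were tested on simulated data. Python 3.11.15, numpy 2.4.6, pandas 2.3.3 and scipy 1.17.1 were used. The members and lists were chosen with earlier results of these data known. The genes named were the 6 members, their neighbours, Pgk and list genes called in 1 genotype alone, of which there were none; the marker and list genes named as examples fall outside this rule and were chosen after their values were seen. Over the merged regions the difference between replicates 1 and 2 in the mutants had a correlation of -0.0960 with that in the controls, so the numbers were not read as pairs.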

Additional observations from a re-analysis of the deposited data

How the results depend on the processing

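The smallest p that 2 against 2 libraries allow is 0.333 (exact permutation test), and depth moves with genotype. Of 53 alternative values of the counts, 46 stayed within 1.5 times the reported count. Regions called in all 4 libraries numbered 9 under −log10 q of at least 3 or 5, equal-length and depth-scaled lists, 8 with summits within 150 bp, 6 with no flank and 14 with a 5000 bp flank. Control-only regions numbered 1 in equal-length lists. Leaving out 1 library gave 3 to 5 control-only regions (5 without control 2 or mutant 2, 4 without mutant 1), 0 to 1 mutant-only regions (1 without control 2 or mutant 2) and 9 to 11 regions called in all libraries; fewer libraries then have to agree. Genes with a gene-end peak in all libraries numbered 4 with −log10 q of at least 5, in equal-length lists and within 250 bp, the last chosen after seeing the data. So was leaving out each library for this and the next counts, which gave 4 to 5 such genes (5 without mutant 1, when Pink1 joins them), 3 to 4 genes with fewer peaks, 4 to 5 with fewer bp and 7 to 9 narrower regions in the mutants. Narrower regions numbered 6 among those with 1 peak in each library, also chosen after seeing the data.

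In length under peaks, 7 differences changed sign: srl to 105 bp with −log10 q of at least 5 and in equal-length lists, Ets97D to -2.5 bp with no flank, -44.5 bp with a 5000 bp flank, -83 bp without mutant 1 and -73.5 bp without control 1, and park to 27.5 bp without mutant 1. Leaving out each library in turn gave -83 to 106 bp at Ets97D and -266.5 to 27.5 bp at park. The cause was not tested for Ets97D and park. Ranking by fold enrichment moved 4 of 12 mean ranks by more than the replicate SD. Blocked by replicate number, the paired differences equalled the unpaired ones (-165.5 bp at ewg), and the smallest exact sign-flip p was 0.5; it changed no call.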
